A study of Mus musculus with 18 samples.

Results

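The adrenomedullin family comprises 6 of the 78239 genes in each count table, the peptide genes Adm and Adm2, the receptor gene Calcrl and the 3 receptor activity-modifying protein genes Ramp1, Ramp2 and Ramp3. The family was selected on the retinal log2 fold changes of Adm and Adm2, which were among the largest, so the retinal values below are given as a description with no test. RNA was sequenced from mouse retinas 3 weeks after subretinal injection, at postnatal days 29 to 32, of AAV::nsHif1a or AAV::eGFP (5 libraries each), and from 661W cells 20 h after transfection with an nsHif1a or eGFP plasmid (4 libraries each). nsHif1a encodes a Myc-tagged HIF1A that is stable in normal oxygen, expressed in retina from the rod-specific mouse opsin promoter and in cells from the ubiquitous CMV promoter. The AAV vectors differ in the insert, while the plasmid for nsHif1a in cells was derived from the AAV construct and the eGFP control was a pcDNA plasmid, so that backbone and insert cannot be told apart in cells. AAV reached part of each retina, whereas the whole retina was sequenced, and no other transgene is named. GEO's labels name the mice as C57BL/6J, whereas the study's methods name wild-type 129S6 mice. 661W is an established mouse photoreceptor-like cell line.

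Adrenomedullin and adrenomedullin 2 (also called intermedin) are secreted peptides of the calcitonin family. They act on a G protein-coupled receptor formed by CALCRL and one RAMP, and the RAMP sets the ligand preference: RAMP1 gives the receptor for calcitonin gene-related peptide, and RAMP2 and RAMP3 give receptors for adrenomedullin. The receptor couples to Gs and raises cAMP, it is known best in blood and lymphatic endothelium, and Adm is a known target of hypoxia-inducible factors.

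Libraries held 12898220 to 16167522 assigned counts in the retina and 13424326 to 17809585 in cells, so that 3 counts corresponded to 0.186 to 0.229 and 0.169 to 0.225 counts per 1000000 (CPM), respectively. All 6 members passed the filter on low counts in the retina, Adm and Adm2 through their nsHif1a libraries. Hif1a transcripts were at 157 ± 6.79 CPM with eGFP and 1560 ± 384 CPM with nsHif1a in cells (SD, n = 4) and were 668 ± 26.1 and 687 ± 31.6 CPM in the eGFP and nsHif1a retinas (SD, n = 5). Xist, the RNA of the inactive X chromosome of female cells, gave over 1000 counts in all 5 nsHif1a retinas and in eGFP replicates 1 and 2, but 3 or fewer counts in eGFP replicates 3 to 5, so that Xist class and vector partly coincided. The summed lens gamma-crystallin RNA ranged from 634 to 2820 CPM in eGFP and from 920 to 19000 CPM in nsHif1a retinas. All 10 rod markers were detected in the retina, at 49500 to 54600 CPM in eGFP and 38800 to 51600 CPM in nsHif1a libraries, whereas 661W cells held 15.9 to 18.5 CPM of them with eGFP and 13.4 to 16.8 CPM with nsHif1a, and Nrl, Nr2e3 and Prph2 were at 0 in all 4 nsHif1a cell libraries.

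The 6 genes lie on 5 chromosomes (GRCm39): Adm at chr7:110226858-110229027 on the plus strand (ENSMUSG00000030790.16), Adm2 at chr15:89206923-89209380 on the plus strand (ENSMUSG00000054136.7), and Calcrl at chr2:84160957-84255755 on the minus strand (ENSMUSG00000059588.15). Ramp1 lies at chr1:91107540-91152918 (ENSMUSG00000034353.15), Ramp2 at chr11:101136358-101150419 (ENSMUSG00000001240.14) and Ramp3 at chr11:6608511-6627475 (ENSMUSG00000041046.8), all 3 on the plus strand. Ramp2 is the one member whose counts are uncertain, because 36.2% of its 3134 exon bases are shared with the next gene on the same strand, Vps25. The other 5 members shared at most 1.07% of their 31-base words with transcripts of other genes.

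The sequence upstream of the start is printed for Adm and Adm2, the members whose levels differed together in the retina, from RefSeq (GRCm38.p6 table, each matching once in GRCm39). Capitals mark GCGTG, one spelling of the core to which HIF factors bind, here read on the opposite strand as CACGC. The Adm line covers chr7:110226614-110226857 (244 bases, plus strand) and the Adm2 line chr15:89206673-89206922 (250 bases, plus strand).
Adm: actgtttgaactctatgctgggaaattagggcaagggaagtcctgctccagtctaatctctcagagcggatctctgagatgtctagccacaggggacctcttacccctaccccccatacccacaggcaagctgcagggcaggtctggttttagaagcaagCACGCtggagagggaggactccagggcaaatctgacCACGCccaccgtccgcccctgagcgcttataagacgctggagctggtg
Adm2: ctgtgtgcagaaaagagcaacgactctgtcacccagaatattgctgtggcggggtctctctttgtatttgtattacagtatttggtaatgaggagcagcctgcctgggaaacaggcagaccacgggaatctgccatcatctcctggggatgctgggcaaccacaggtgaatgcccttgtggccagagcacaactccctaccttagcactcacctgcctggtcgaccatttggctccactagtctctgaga
The Adm window held GCGTG at 2 places, 90 to 86 and 54 to 50 bases before the RefSeq start, and the Adm2 window held neither GCGTG nor ACGTG on either strand. Over the 27025 promoter windows of the same 250 bases, 28.2% held GCGTG, 16.6% held ACGTG and 16.8% held 2 or more places of either. CACGTG, which holds ACGTG on both strands, counted as 2 places. Windows of Calcrl and Ramp1 held none, that of Ramp3 held GCGTG at 2 places, and Ramp2 was not in the table. Most of the Calcrl window lies inside the annotated gene and overlaps its exons. The last 22 bases of the Ramp3 window and the last 4 of the Ramp1 window also lie inside the annotated genes. These letters describe the windows and do not show binding.

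Both peptide genes were nearly absent from eGFP retinas and present in every nsHif1a retina. Adm, the adrenomedullin precursor gene, had 2, 7, 3, 6 and 5 counts in eGFP replicates 1 to 5. It had 100, 202, 185, 199 and 269 counts in nsHif1a replicates 1 to 5. The lowest nsHif1a library thus lay far above the highest eGFP library, and the mean level was 0.313 ± 0.134 CPM with eGFP and 12.8 ± 3.49 CPM with nsHif1a (SD, n = 5). The fitted log2 fold change was 5.24 (SE 0.49), and the ratio of summed counts per depth was 40.7, with an exact 95% interval of 26.9 to 64.5 that covers counting error only.

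Adm2 had no count in eGFP replicates 1 to 4 and 1 count in replicate 5. In nsHif1a replicates 1 to 5 it had 21, 58, 49, 52 and 138 counts. The groups did not overlap, and the level was at most 0.0753 CPM with eGFP and 4.22 ± 2.73 CPM with nsHif1a (SD, n = 5). With 1 eGFP count in all, the ratio of summed counts per depth was 312, with an exact 95% counting interval of 55.5 to 12300, and the fitted log2 fold change of 6.25 (SE 0.60) depended on the test used. Adm and Adm2 were the 2 of 6 members whose groups did not overlap, in both cases with nsHif1a higher, beside 3.25% of the 18859 retinal genes tested. The rule used this contrast, and nothing is read from that count.

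**Figure D1:**
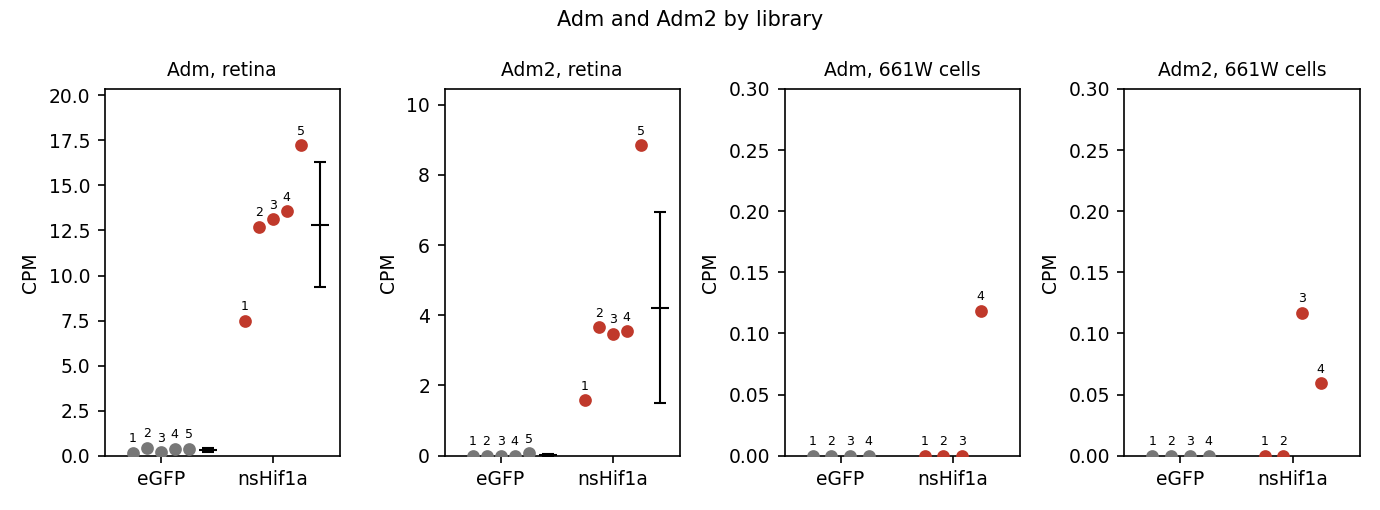
Level of Adm and Adm2 in CPM (vertical axis, its own scale in each panel) by vector (horizontal axis) in retina and 661W cells. Points are libraries with their replicate numbers, and bars show mean and SD for the retina. All 5 nsHif1a retinas lay above all eGFP retinas for both genes, while the highest cell library reached 0.118 CPM for Adm.

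Among the nsHif1a retinas, replicate 1 was lowest and replicate 5 highest for both peptides, with a span of 2.3-fold for Adm and 5.62-fold for Adm2. This order was not particular to the peptides. Vegfa, Edn2 and Stc2, secreted factors described below, had the same lowest and highest library, whereas Stc1 did not. Summed rod markers were highest in replicate 1 (51570 CPM) and lowest in replicate 5 (38760 CPM). Per kb of exon, Adm was 6.42, 4.69, 5.09, 5.16 and 2.63 times the level of Adm2 in nsHif1a replicates 1 to 5. The ratio was therefore lowest in the library with the most of both peptides. Over all 10 retinal libraries, likeness between profiles is dominated by the step from eGFP to nsHif1a on which Adm and Adm2 were selected. The following neighbours therefore describe the genes nearest in that step, and nothing is read from the nearness of the peptides. Of 17640 other genes with a mean of at least 1 CPM, the nearest to Adm beside Adm2 were Gpr15lg, H2-Q2, Ppp1r3g and Smtnl2, with root mean square differences of 0.671, 0.889, 1.10 and 1.16 on the log2 CPM scale. That scale adds a prior count of 2, which shrinks steps that start near 0. The fitted log2 fold changes of these 4 genes were 5.07, 4.83, 3.74 and 3.35, beside 5.24 for Adm, so the later neighbours had smaller steps. Gpr15lg, the gene of a secreted ligand of the receptor GPR15, stood at 0.687 CPM with eGFP and 23.1 CPM with nsHif1a.

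The receptor genes showed no comparable shift. Calcrl, the receptor of both peptides, had 67, 90, 47, 48 and 55 counts in eGFP replicates 1 to 5 and 64, 75, 67, 93 and 119 counts in nsHif1a replicates 1 to 5. The groups overlapped, at 4.23 ± 1.24 and 5.65 ± 1.30 CPM (SD, n = 5), and the fitted log2 fold change was 0.38 (SE 0.20). This difference moved with the Xist class: the 3 eGFP retinas with 3 or fewer Xist counts had 2.91 to 4.14 CPM, the 2 others 5.12 and 5.81 CPM, and the nsHif1a retinas 4.72 to 7.63 CPM. With Xist class as a covariate the log2 fold change was -0.05, and among libraries with Xist counts alone it was -0.04. The 2 eGFP retinas with Xist counts also had lower summed retinal pigment epithelium markers (57.88 and 74.89 against 228.5 to 719.8 CPM). Their sums were higher for microglia and macrophage markers (116 and 197.5 against 54.31 to 78.75 CPM) and endothelial markers (390 and 401.4 against 351.5 to 383.9 CPM). Rod, Müller glia, lens, mural and tip cell sums overlapped. Xist class and such differences in content cannot be told apart here. In whole retina, fewer cells of a type and less RNA per cell cannot be told apart.

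Endothelial markers, which mark the cells in which the receptor is best known, summed to 351 to 401 CPM in eGFP and 378 to 463 CPM in nsHif1a retinas, with all 12 markers detected. The most abundant of them were Kdr (208 ± 20.1 and 250 ± 22.3 CPM) and Flt1 (108 ± 8.90 and 94.4 ± 7.82 CPM), both receptors for VEGFA (SD, n = 5). The other markers averaged at most 13.8 CPM with eGFP and 14.4 CPM with nsHif1a, so the sum was mainly Kdr and Flt1. Relative to 1000 CPM of that sum, Calcrl was 11.1 ± 2.73 CPM with eGFP and 13.5 ± 2.21 CPM with nsHif1a (SD, n = 5). The ranges overlapped, and this ratio was not shown to measure Calcrl per endothelial cell. A gene was called when its adjusted p (limma-voom with sample weights, Benjamini-Hochberg adjusted over all genes tested) was under 0.05 and its absolute log2 fold change above 0.5, which 1.99% of the 18859 genes tested in the retina met. None of the 12 endothelial, 8 mural cell, 8 microglia and macrophage and 7 Müller glia markers was called, nor any of the 7 of 8 tip cell markers that were tested. Log2 fold changes were positive for 8 of 8 microglia and macrophage markers (median 0.89) and 11 of 12 endothelial markers (0.27). They were also positive for 5 of 8 mural cell, 5 of 7 Müller glia and 4 of 7 tip cell markers. Those of all 10 rod markers were negative (median -0.21), with 4 at an adjusted p under 0.05 (limma-voom) and none called. Summed mural cell markers ranged from 107 to 144 CPM with eGFP and from 125 to 185 CPM with nsHif1a, tip cell markers from 34.2 to 41.5 and from 35.5 to 45.1 CPM, microglia and macrophage markers from 54.3 to 197 and from 76.0 to 199 CPM, Müller glia markers from 3280 to 3450 and from 2860 to 3470 CPM, and markers of the retinal pigment epithelium from 57.9 to 720 and from 54.2 to 857 CPM. The part of cell composition in the Calcrl values was not tested.

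Ramp3, which with CALCRL forms an adrenomedullin receptor, was the most abundant member in control retina. It had 187, 211, 237, 233 and 221 counts with eGFP and 207, 240, 206, 196 and 196 counts with nsHif1a. Its level was 14.9 ± 1.15 and 14.2 ± 1.24 CPM (SD, n = 5), the groups overlapped, and the log2 fold change of -0.06 (SE 0.08) had the smallest error of the 6 members.

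Ramp2, the other partner for adrenomedullin, had 61, 70, 40, 32 and 44 counts with eGFP and 48, 33, 43, 40 and 93 counts with nsHif1a. The level was 3.42 ± 1.16 and 3.48 ± 1.49 CPM (SD, n = 5), and the log2 fold change was -0.11 (SE 0.28), without account of the exons shared with Vps25. As for Calcrl, the 2 eGFP retinas with Xist counts stood higher (4.52 and 4.66 CPM) than the 3 without (2.11 to 3.31 CPM). With Xist class as a covariate, the log2 fold change of Ramp2 was -0.62. The marker sums that differed between these eGFP retinas, given for Calcrl, cannot be told apart from Xist class.

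Ramp1, the partner for calcitonin gene-related peptide, had 18, 32, 34, 21 and 27 counts with eGFP and 24, 37, 19, 74 and 24 counts with nsHif1a. Apart from nsHif1a replicate 4, at 5.04 CPM, the nsHif1a libraries lay between 1.35 and 2.33 CPM, within or close to the eGFP range of 1.38 to 2.10 CPM. The log2 fold change was 0.24 (SE 0.31).

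**Figure D2:**
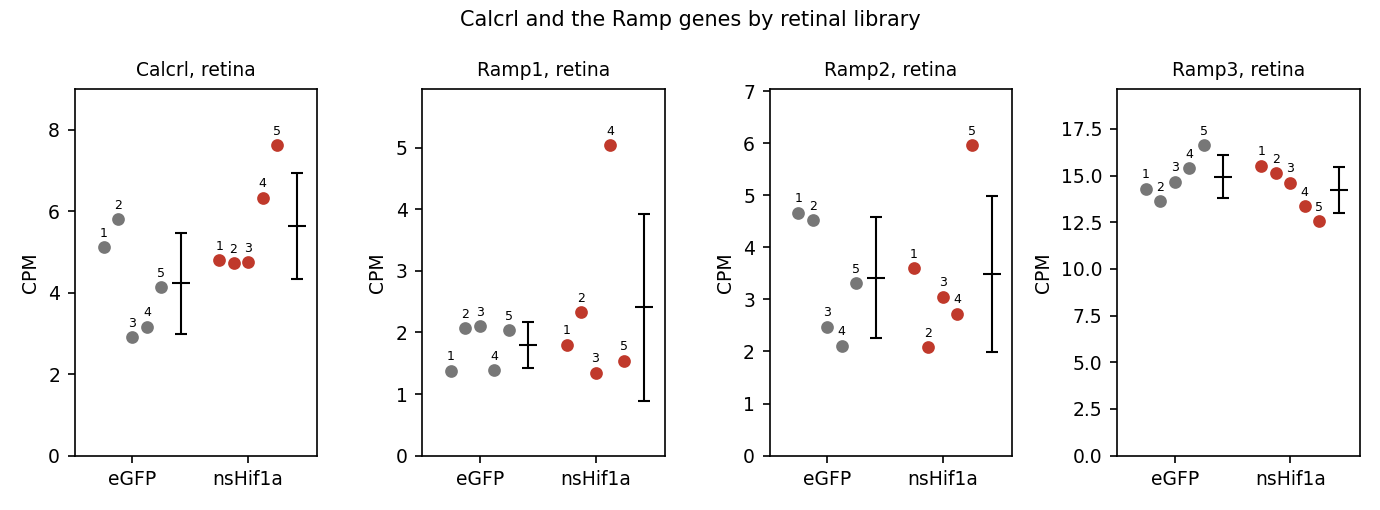
Level of Calcrl, Ramp1, Ramp2 and Ramp3 in CPM (vertical axis, starting at 0, its own scale in each panel) by vector in the retina. Points are libraries with their replicate numbers, and bars show mean and SD of 5. The groups overlapped for all 4 genes, and eGFP replicates 1 and 2 stood above eGFP replicates 3 to 5 for Calcrl and Ramp2.

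Per kb of exon, the order of mean levels in eGFP retina was Ramp3 (12 ± 0.926 CPM per kb), Ramp2 (1.09 ± 0.370), Calcrl (0.864 ± 0.254), Ramp1 (0.535 ± 0.113), Adm (0.223 ± 0.096) and Adm2 (0.00798 ± 0.0178). Neighbouring ranges overlapped between Ramp2 and Calcrl and between Calcrl and Ramp1, and not between the other neighbours. In nsHif1a retina Adm stood second, at 9.17 ± 2.49 CPM per kb, with a range that overlapped that of Ramp3 at 11.4 ± 0.994. Adm2 came next at 2.24 ± 1.45, with a range that overlapped that of Calcrl, and the neighbours Calcrl, Ramp2 and Ramp1 overlapped too. Adm per kb was 5.46 to 9.65 times Calcrl in the nsHif1a retinas. Ramp3 accounted for 88.0% ± 3.04 of the summed Ramp level per kb in eGFP and 86.1% ± 4.26 in nsHif1a retina (SD, n = 5).

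**Figure D3:**
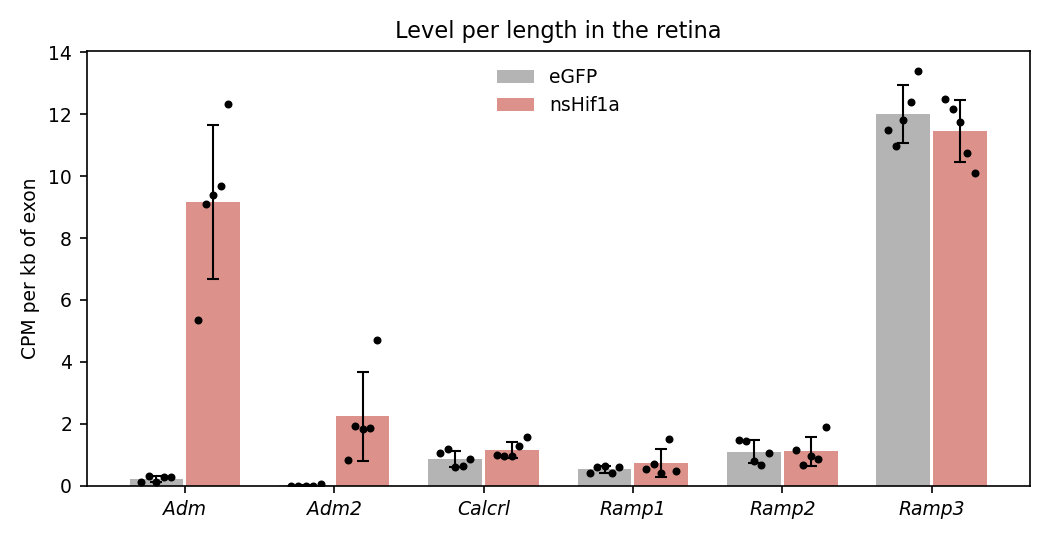
Level per length in the retina for the 6 members, in CPM per kb of exon (vertical axis), with eGFP in grey and nsHif1a in red. Bars are means, error bars SD and points the 5 libraries of each group. Adm stood at 0.223 CPM per kb with eGFP and at 9.17 with nsHif1a, where Ramp3 stood at 11.4.

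In 661W cells the question was whether the same transcription factor moved the family in isolated photoreceptor-like cells. By the same definition 1.27% of the 15962 genes tested in cells were called. Of the 12 endothelial markers, which summed to 30.4 to 45.2 CPM with eGFP and 42.3 to 51.1 CPM with nsHif1a, Cldn5, Emcn, Erg and Robo4 were at 0 in all 8 cell libraries. Adm had no count in the 4 eGFP libraries and 0, 0, 0 and 2 counts in nsHif1a replicates 1 to 4. Adm2 had no count with eGFP and 0, 0, 2 and 1 counts with nsHif1a. Calcrl had no count with eGFP and 2, 0, 0 and 1 counts with nsHif1a. These 3 genes were at or below 3 counts in each group, so no fold is given, and an exact 95% upper limit for the nsHif1a cells was 0.109 CPM for Adm and 0.132 CPM for Adm2 and Calcrl. Hif1a levels in the same libraries are given above.

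Ramp1 and Ramp2 also failed the filter on low counts in cells. Ramp1 had 2, 8, 2 and 9 counts with eGFP and 9, 7, 2 and 9 counts with nsHif1a, a ratio of summed counts of 1.21 (exact 95% counting interval 0.657 to 2.24). Ramp2 had 6, 4, 5 and 4 counts with eGFP and 13, 7, 8 and 3 counts with nsHif1a, a ratio of 1.53 (0.838 to 2.87). Both intervals include no change.

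Ramp3 was the only one of the 6 members that passed the filter on low counts in cells, and it was not called. It had 38, 38, 41 and 22 counts with eGFP and 6, 1, 17 and 20 counts with nsHif1a. The highest nsHif1a library, at 1.19 CPM, lay below the lowest eGFP library, at 1.65 CPM, so that the groups did not overlap, which held with nsHif1a lower for 6.11% of the genes tested. The means were 2.20 ± 0.375 and 0.647 ± 0.529 CPM (SD, n = 4) and the log2 fold change was -2.30 (SE 0.57, 95% interval -3.59 to -1.01), with an adjusted p of 0.0689 by limma-voom (unadjusted p = 0.0028). The call differed by tool, with an adjusted p of 0.028 by DESeq2 and 0.106 by edgeR. It also differed between replicates: the mean was 11.6-fold lower with nsHif1a in replicates 1 and 2 and 1.86-fold lower in replicates 3 and 4. Without nsHif1a replicate 3 or 4 the log2 fold change was -3.33 or -3.47 and Ramp3 was called (adjusted p of 0.00131 and 0.000954, limma-voom), and without nsHif1a replicate 1 or 2 it was -1.17 or -1.06 and not called. The number of calls over all genes rose too, to 1878 of 16171 without nsHif1a replicate 3 and 1876 of 16166 without replicate 4. With all libraries, limma-voom called 203 and DESeq2 366 of 15962 genes.

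**Figure D4:**
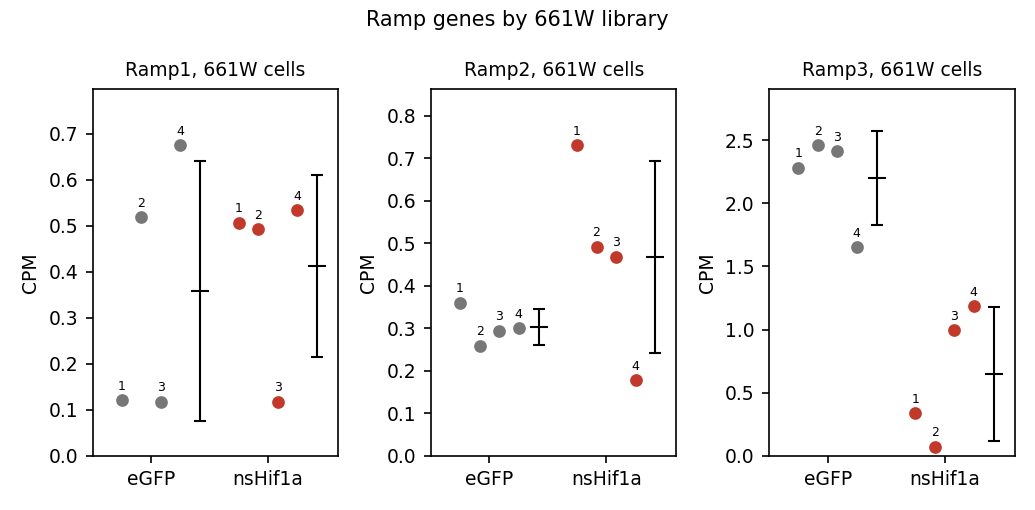
Level of the 3 Ramp genes in CPM (vertical axis, starting at 0, its own scale in each panel) by plasmid in 661W cells. Points are libraries with their replicate numbers, and bars show mean and SD of 4. Ramp3 was lower in all 4 nsHif1a libraries, at 0.0703 to 1.19 CPM, and lowest in replicates 1 and 2.

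Genes around the receptor were examined as 4 lists of 49 genes: other peptides and the receptor of the calcitonin family, peptide processing and clearance, receptor coupling, and cAMP response genes. In the retina 45 of them were tested and none was called, by limma-voom, edgeR or DESeq2, beside the 1.99% of all genes. At an adjusted p under 0.05 without the fold threshold there were 3 of 45, beside 5.79% of all genes, and at an unadjusted p under 0.05 there were 9, beside 21.7% of all genes. The median log2 fold change of the 45 was 0.04, and that of all genes tested -0.002.

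Of the calcitonin family list, Calca, which encodes calcitonin and calcitonin gene-related peptide, was the one gene of 4 that was tested. It had 9, 4, 11, 13 and 19 counts with eGFP and 20, 30, 19, 19 and 25 counts with nsHif1a, with a log2 fold change of 1.02 (SE 0.33, adjusted p = 0.0985, limma-voom). The groups overlapped, with eGFP replicate 5 at 1.43 CPM above nsHif1a replicates 3 and 4 at 1.348 and 1.295 CPM. Calca was called only when eGFP replicate 5 was left out (log2 fold change 1.41, adjusted p of 0.0392, limma-voom). Iapp, the amylin gene, had no count in any retinal library, and Calcr, the calcitonin receptor gene, had 1 to 5.

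Of 14 processing and clearance genes 13 were tested. Pcsk5, a proprotein convertase, had a log2 fold change of -0.47 (SE 0.08, adjusted p = 0.00646, limma-voom), just short of the fold threshold, and Pcsk6 had -0.25 (adjusted p = 0.313, limma-voom). Pam, the enzyme that amidates the C terminus of both peptides, was at 111 ± 5.86 and 116 ± 5.17 CPM (SD, n = 5). Gpr182, a scavenging receptor, had 0 to 2 counts with eGFP and 1 to 6 with nsHif1a.

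All 22 receptor coupling genes were tested, with a median log2 fold change of 0.02. Grk2, the kinase that phosphorylates activated receptors, had 0.23 (SE 0.04, adjusted p = 0.00903, limma-voom). The largest absolute values were those of the adenylyl cyclases Adcy4 (0.57, SE 0.32) and Adcy7 (0.43, SE 0.23), with adjusted p of 0.333 and 0.286 (limma-voom).

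The 9 cAMP response genes were all tested in the retina, 8 of them with a positive log2 fold change and a median of 0.17. Per1, a clock gene that responds to CREB, had 0.28 (SE 0.07, adjusted p = 0.0356, limma-voom). Nr4a3 had 0.57 (SE 0.20, adjusted p = 0.117) and Dusp1, a phosphatase of MAP kinases, 0.34 (SE 0.17, adjusted p = 0.262, limma-voom). Dusp1 was called with Xist class as a covariate (log2 fold change 0.78, adjusted p of 0.0478), among libraries with Xist counts alone (0.78, adjusted p of 0.0157) and without eGFP replicate 4 (0.56, adjusted p of 0.0254, all limma-voom).

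In cells 34 of the 49 genes were tested, with a median log2 fold change of -0.007, and 1 was called, beside 1.27% of all genes. Nr4a3, an orphan nuclear receptor and early response gene, had 4, 5, 8 and 14 counts with eGFP and 39, 25, 26 and 24 counts with nsHif1a. Its log2 fold change was 1.88 (SE 0.39, adjusted p = 0.0409, limma-voom). The call was lost with the replicate block (log2 fold change 1.6, adjusted p of 0.12, limma-voom), by edgeR (adjusted p of 0.0579) and without eGFP replicate 1 or 2 (adjusted p of 0.119 and 0.12, limma-voom). The call held when the limma-voom model included library set, 1 and 2 or 3 and 4 (log2 fold change 1.75, adjusted p of 0.0205). Prkar2b, a regulatory subunit of protein kinase A, had -0.37 (SE 0.08, adjusted p = 0.0453, limma-voom), below the fold threshold. Adjusted p was under 0.05 for 2 of 34 genes, beside 2.49% of all genes in cells, and unadjusted p for 8, beside 20.7%. Among the processing genes Pcsk6 had 0.33 (SE 0.21), and among coupling genes the largest absolute values were Adcy1 (-0.41, SE 0.30) and Prkar1b (-0.38, SE 0.12). Per1 had 0.24 (SE 0.08, adjusted p = 0.127, limma-voom). None of the 4 calcitonin family genes was tested in cells.

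Other secreted factors that HIF is known to induce are given for the same libraries. They were listed with earlier results of these data known, so their counts of calls are descriptive. In the retina 3 of 8 were called, beside 1.99% of all genes, all higher: Vegfa, the vascular endothelial growth factor (log2 fold change 0.81, SE 0.07), Edn2, an endothelin (1.92, SE 0.30), and Stc2, a stanniocalcin (2.92, SE 0.36), with adjusted p of 0.000167, 0.00332 and 0.00103 (limma-voom). In cells 3 of 7 tested were called, beside 1.27% of all genes, also higher: Vegfa (0.91, SE 0.13), Stc2 (0.95, SE 0.06) and Stc1, with adjusted p of 0.0105, 0.000108 and 0.000128 (limma-voom). Stc1 had 1 count in the 4 eGFP cell libraries together and 29 to 71 in each nsHif1a library, a ratio of summed counts of 203 with an exact 95% counting interval of 36 to 8040. Edn2 had no count in any cell library. In the retina Angptl4 (0.28, SE 0.29), Apln (-0.36, SE 0.31), Edn1 (0.24, SE 0.19), Igfbp3 (-0.09, SE 0.32) and Stc1 (0.55, SE 0.16) did not pass. In cells Angptl4 (-0.86, SE 0.20), Apln (0.84, SE 0.21), Edn1 (0.66, SE 0.20) and Igfbp3 (0.77, SE 0.48) did not pass. Whether the effect on the family differed between retina and cells was not tested.

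**Figure D5:**
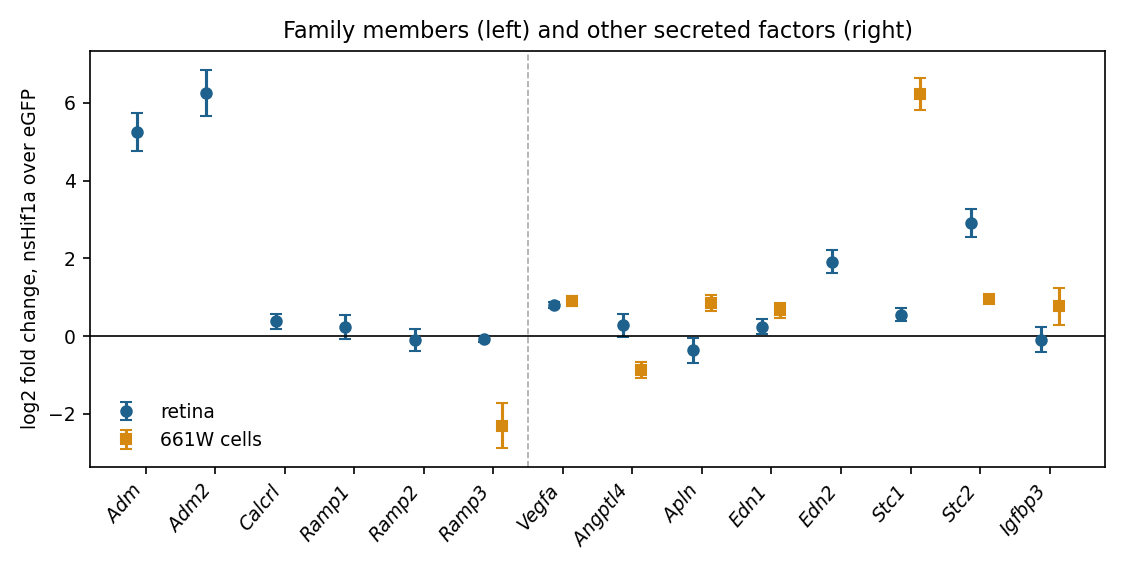
Fitted log2 fold change (vertical axis, nsHif1a over eGFP) with its SE for the 6 members left of the dashed line and for 8 other secreted factors right of it (horizontal axis). Circles are the retina and squares 661W cells, and a gene without a square was not tested in cells. Adm (5.24) and Adm2 (6.25) were selected on these retinal values, and Ramp3 is the one member with a value in cells (-2.30).

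The genes whose deviations from the group means were most like those of Calcrl over the 10 retinal libraries were Mvp (r = 0.98), Irf2 (0.978), Rcsd1 (0.975), Xdh (0.973) and Tgfbi (0.959). For Ramp2 they were Prss56 (0.955), Dpp3 (0.939), Tns2 (0.92), Nrp1 (0.919) and Ano10 (0.916). These are the highest of 17640 correlations, all libraries share the same depth scaling, and the values are descriptive.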

How the data were processed

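Per the methods and labels, the Illumina Stranded mRNA Prep was used, and paired reads were aligned with Rsubread to GRCm39 and assigned strand-specifically to gencode genes by featureCounts. The authors deposited raw counts per gene and library. Names, positions and exon lengths came from gencode M39 by gene ID, so lengths may differ from the release used for counting. Members and lists were chosen with earlier results of these data known. Genes passing filterByExpr were fitted with TMM scaling and limma-voom with sample quality weights (limma 3.58.1, edgeR 4.0.16, R 4.3.3), each experiment alone. CPM used the same scaling. Intervals of count ratios and upper limits are exact and cover counting error only, while that of the Ramp3 log2 fold change is from the limma fit. The fits were repeated with DESeq2 1.42.0 and the quasi-likelihood test of edgeR, other scalings and filters, single libraries left out, a replicate block and covariates. The limma, edgeR and DESeq2 tests were checked on simulated counts.

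Named genes were the members, the called and the 2 most changed genes of each pathway list, all 8 secreted factors and the 2 highest endothelial markers. Grk2, Per1, Prkar2b, Pam, Gpr182, Iapp and Calcr were named after their values were seen, and 1 gene that the rule names is not reported here. Deviations from the group means correlated at 0.227 to 0.269 between same-numbered cell libraries. With the other number of the same set (1 and 2, or 3 and 4) they correlated at 0.246 to 0.287, and with the other set at -0.268 to -0.234. The cell libraries thus fall into these sets, as a hint from the data and not from a label. The numbers are not shown to pair libraries within a set. In the retina same-numbered libraries correlated at -0.148 to 0.138, and the numbers do not pair the libraries. The sources do not say whether the cell replicates were separate cultures, so p-values measure only the spread between these libraries.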

Additional observations from a re-analysis of the deposited data

Results flagged for a closer look

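Within each of the 21 groups of member values that varied, a library was singled out by its gap to the nearest other library. The gap had to exceed a set share of the group's range, which chance does in about 1 in 20 groups of normally distributed values. That rate does not hold where a single library has any counts, since the gap is then 1.0 whatever the count. In the nsHif1a retina, Adm2 in replicate 5 (138 counts, 8.85 CPM) lay above the other 4 libraries (1.57 to 3.65 CPM), with a gap of 0.714 of the range. Replicate 5 was also the highest for Adm, and for Vegfa, Edn2 and Stc2. Ramp1 in nsHif1a replicate 4 (74 counts, 5.04 CPM) lay above the other 4 (1.35 to 2.33 CPM), with a gap of 0.734. The Adm2 eGFP retina group was singled out for 1 count in replicate 5 beside 0 in the rest, and Adm in nsHif1a cells for 2 counts in replicate 4 beside 0 in the rest (gap of 1.0 in both). Ramp1 in nsHif1a cell replicate 3 had 2 counts (0.117 CPM) below 0.492 to 0.533 CPM in the others (gap of 0.901). These last 3 rest on 2 counts or fewer in the library that stood apart.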

How the results depend on the processing

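The retinal log2 fold change of Adm stayed between 5.06 and 5.39 over 21 alternatives. That of Adm2 ranged from 6.03 to 6.73 in 19 and was 7.58 by edgeR and 7.81 by DESeq2 (the cause was not tested). With the replicate block, Adm was 5.28 and Adm2 6.46. Calcrl moved from 0.38 to -0.05 with Xist class as a covariate and -0.04 among libraries with Xist counts, and the cause was not tested. Pathway genes called in the retina went from 0 to 1 with Xist class as a covariate, 1 among libraries with Xist counts, 3 without the fold threshold, and 0 to 1 when single libraries were left out (1 without eGFP replicate 4 or 5). In cells the count went from 1 to 0 by edgeR, 0 with the replicate block, 2 without the fold threshold, and 0 to 3 when single libraries were left out. It was 3 without nsHif1a replicate 3 or 4, which added Prkar1b and Adcy1. Over all genes tested, 1878 of 16171 and 1876 of 16166 were then called, beside 203 of 15962 with all libraries. The pathway count was 0 without eGFP replicate 1 or 2, where 84 of 16312 and 89 of 16297 genes were called. These shifts in the pathway count are thus not particular to the lists. Members called in cells went from 0 to 1 by DESeq2 and ranged from 0 to 1 when single libraries were left out. Ramp3 in cells had a log2 fold change of -1.76 by DESeq2 (called), -1.70 with the replicate block (adjusted p = 0.156, limma-voom) and -3.47 to -1.06 when single libraries were left out. The block, which treats same-numbered libraries as pairs, removed the call of Nr4a3 in cells. It changed no other call of the family or its pathway lists. A limma-voom fit that took account of library set (1 and 2, or 3 and 4) gave Ramp3 -1.80 (adjusted p = 0.0521, not called). In that fit Nr4a3 stayed called, and 592 of 15962 genes were called in all. In cells, where depth was like that of the retina, Adm, Adm2 and Calcrl lay at or below 3 counts per group. Differences within the exact 95% upper limits for nsHif1a cells (0.109 CPM for Adm, 0.132 CPM for Adm2 and Calcrl) were not detectable. The means in nsHif1a retina, 12.8, 4.22 and 5.65 CPM, lay above these limits.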

Other observations

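The Adm locus carries 2 long noncoding RNA genes on the opposite strand, described here after their counts were seen. Gm72687 (chr7:110226191-110229429, minus strand) spans Adm and shares 291 bases, 20.8% of the exon bases of Adm, while the basic transcripts of Gm28863 (chr7:110223203-110226785, minus strand) lie beside the Adm start, run away from it and share no exon base with Adm in the annotation used here. In the retina Gm28863 had no count in any eGFP library and 2, 6, 4, 6 and 16 counts in nsHif1a replicates 1 to 5. Gm72687 had 0, 0, 1, 0 and 2 counts with eGFP and 1, 14, 4, 11 and 22 with nsHif1a, where its groups overlapped. Both genes were highest in replicate 5, as were Adm and Adm2 and also Vegfa, Edn2 and Stc2, so this order was not particular to the locus. In 661W cells, where Adm had 2 counts in all, Gm28863 had 1, 0, 1 and 0 counts with eGFP and 8, 2, 13 and 8 with nsHif1a, a ratio of summed counts of 14.5 (exact 95% counting interval 3.70 to 125). Gm72687 had 1, 0, 1 and 0 counts with eGFP and 4, 5, 12 and 11 with nsHif1a, a ratio of 15 (3.83 to 129). The counting is stated to use strand. No test across genes was made for them, because they were singled out by these counts.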
